A study of Mus musculus with 12 samples.

Results

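Mitochondrial calcium entry was examined through the transcripts of 9 genes: Mcu, Smdt1 and Mcur1 of the calcium uniporter pore, its gatekeepers Micu2 and Micu3, the cation exchanger gene Letm1, and the porin genes Vdac1, Vdac2 and Vdac3. They were chosen by symbol, through the Ensembl IDs of the count tables, and make up 9 of the 48709 gene IDs listed. RNA sequencing counted reads per gene in 12 samples of embryonic fibroblasts (MEFs) of the C57BL/6 mouse strain, grown in DMEM medium with fetal bovine serum. WT and TAZKo cells were each kept in normoxia or in hypoxia for 24 hours, with 3 samples in each of the 4 groups. TAZKo cells are described as lacking tafazzin, the product of Taz, and the WT cells as isogenic to them. How Taz was disrupted, and how many embryos or clones each genotype came from, is not given in the sources used here, so an effect of genotype and a difference between the cell populations cannot be told apart. The labels also do not say whether the samples of a group were separate cultures, so every p-value measures the spread between these samples, which may be technical.

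The inner mitochondrial membrane takes up calcium through the uniporter, a channel whose pore protein MCU is held to its calcium-sensing gate of MICU proteins by the small protein EMRE, the product of Smdt1. Calcium reaches that channel after crossing the outer membrane through the voltage-dependent anion channels (VDACs), beta-barrel pores that also pass ATP, ADP and other metabolites. Tafazzin remodels cardiolipin, the lipid typical of the inner membrane in which the uniporter sits, and calcium in the matrix stimulates several dehydrogenases of the tricarboxylic acid cycle.

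Total counts ran from 21039451 to 31204510 per sample, and 3 counts, taken as the limit that a count of 0 allows, were worth 0.0927 to 0.150 CPM (counts relative to the TMM-scaled library total, TMM being edgeR's trimmed mean scaling). Such limits cover counting error only. Taz itself, the gene named in the label, was not lower in the libraries labelled TAZKo: it ran from 39.8 to 45.8 CPM against 32.7 to 38.0 CPM in WT in normoxia, and from 32.8 to 35.1 CPM against 23.5 to 26.4 CPM in WT in hypoxia. The genotype directions below therefore rest on the labels, and the samples are the libraries labelled TAZKo and labelled WT throughout. WT normoxia sample 1 stood apart on the third principal component (35.69, the other 11 samples between -13.4 and 10.45) and had the lowest mitochondrial share of counts (0.921%, the others 1.23% to 1.93%). Calls among the 9 genes that changed without it are given with the value it leaves, as are some of the values that moved. Others moved as well. Without it the log2 change with hypoxia in WT cells was 0.07 for Vdac3 and -0.12 for Micu2. Smdt1 then differed by 0.06 between genotypes in normoxia, and by -0.09 between the genotypes' hypoxia responses. Fibroblast markers summed to between 4173 and 8084 CPM per library, although Thy1 had 2 to 8 counts and Col1a2 only 36 to 147. Markers of epithelium (98.0 to 152 CPM, nearly all Krt18), nerve and glia (22.5 to 61.4), endothelium (3.84 to 21.0), blood and macrophages (4.85 to 13.9) and muscle (2.85 to 10.1) were lower. Adgre1 and Myod1 had 0 counts in all 12 libraries, and Ptprc, Cdh5, Myog and Actc1 had at most 2. Several of these sums moved with the label, without overlap in either condition. The endothelial sum was lower in TAZKo cells (5.64 to 7.45 against 18.0 to 21.0 CPM in normoxia, 3.84 to 5.05 against 14.5 to 20.5 in hypoxia), as were the nerve and glia sum (22.5 to 28.0 against 33.3 to 40.2, and 35.0 to 37.2 against 44.4 to 61.4) and the fibroblast sum (4173 to 4376 against 5064 to 6066, and 5587 to 5990 against 7027 to 8084). The muscle sum was higher in TAZKo cells (9.02 to 10.1 against 3.73 to 4.95, and 5.57 to 6.46 against 2.85 to 4.44). The blood and macrophage sum was higher in TAZKo cells in normoxia (6.37 to 7.24 against 4.85 to 5.93) and lower in hypoxia (8.61 to 10.5 against 11.8 to 13.9), and that of epithelium was lower in normoxia alone. With hypoxia the fibroblast, nerve and blood sums rose without overlap in both genotypes. A sum follows its most abundant genes, such as Col1a1 and Vim, Tek, Tubb3 and Des, and in several lists other genes went the other way. Of 7 tested fibroblast markers, 2 were called higher and 4 lower with hypoxia in WT cells (26.0% and 25.0% of all genes). Between genotypes in normoxia, 3 were higher and 2 lower in TAZKo cells (15.6% and 14.9%). Lyz2 fell with hypoxia, and Pecam1 was higher in TAZKo cells in normoxia. The part of these marker levels in any difference below was not tested.

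Each of the 9 genes had enough reads to be tested, from 132 counts (Micu3) to 16055 counts (Vdac1) in a library. Mcu differed between the genotypes in both conditions and did not differ detectably between oxygen conditions. Vdac1 and Vdac2 rose and Smdt1 fell after hypoxia in both genotypes. Mcur1 was higher in TAZKo cells in normoxia, and Micu3 rose with hypoxia in WT cells. Calls rest on the edgeR quasi-likelihood test with Benjamini-Hochberg adjustment over 14408 genes and a threshold of 0.05, and a log2 change is given with its standard error (SE).

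**Figure D1:**
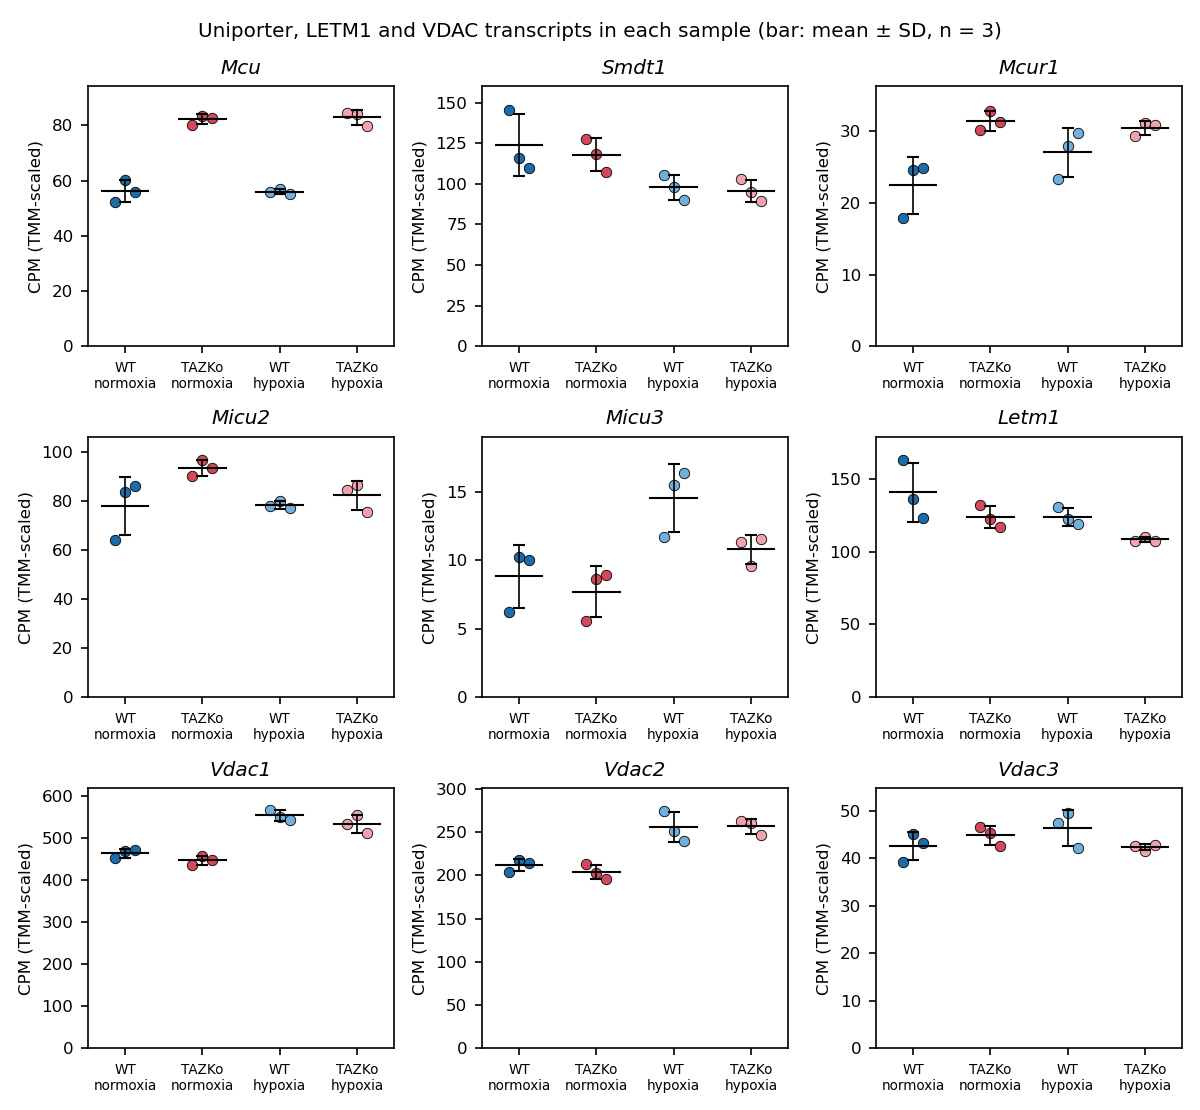
CPM (vertical axis, from 0) of each of the 9 genes in the 12 samples, by group. Points are samples 1 to 3 from left to right, and bars are the mean ± SD of 3 samples. The TAZKo samples of Mcu lie between 79.7 and 84.6 CPM and all WT samples between 52.4 and 60.3 CPM, while Vdac1 and Vdac2 separate by oxygen condition.

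For the genes that moved the same way in both conditions or genotypes, the sequence just upstream of the start is printed so that its letters can be read beside their values. The runs below are the bases before the first RefSeq start (GRCm38.p6), 5′ to 3′ on the strand of the gene. Capitals mark ACGTG or GCGTG, the core letters bound by hypoxia-inducible factors, and TGACGTCA, the cAMP response element, on either strand. Mcu is chr10:59616693-59616942 on the minus strand, Smdt1 is chr15:82345796-82345953 on the plus strand, and Vdac1 is chr11:52360601-52360850 on the plus strand.
Mcu: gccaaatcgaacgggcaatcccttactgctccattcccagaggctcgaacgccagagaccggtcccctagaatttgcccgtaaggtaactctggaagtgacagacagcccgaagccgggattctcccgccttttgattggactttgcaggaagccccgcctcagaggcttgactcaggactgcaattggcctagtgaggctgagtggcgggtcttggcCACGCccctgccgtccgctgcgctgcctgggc
Smdt1: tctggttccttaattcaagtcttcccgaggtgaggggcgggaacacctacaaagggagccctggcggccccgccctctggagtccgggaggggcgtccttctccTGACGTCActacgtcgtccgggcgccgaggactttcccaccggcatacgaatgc
Vdac1: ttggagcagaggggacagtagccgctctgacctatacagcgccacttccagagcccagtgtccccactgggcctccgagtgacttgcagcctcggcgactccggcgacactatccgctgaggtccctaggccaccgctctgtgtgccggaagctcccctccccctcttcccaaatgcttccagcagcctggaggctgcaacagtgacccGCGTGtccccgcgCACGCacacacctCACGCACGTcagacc
In the 250 bases before the start, Vdac1 held 4 core matches, a pair of them overlapping near the start, while Mcu and Smdt1 held 1 each. The single core of Smdt1 begins at base 157 and runs into an exon annotated in GENCODE, so it lies past the printed stretch of 158 bases. GENCODE also lists Smdt1 transcripts that begin farther upstream, from 82338959, so the Smdt1 window lies inside the annotated gene and before only some of its starts. Smdt1 alone of the genes with an entry held TGACGTCA, from base 105. The other windows held 3 cores (Mcur1), 2 (Micu2), 2 (Letm1) and 1 (a second start of Vdac1). None held TGATGNAAT, a composite element bound by ATF4 with C/EBP factors. Micu3, Vdac2 and Vdac3 had no entry. Among 32851 promoter windows of the same length, 38.6% held at least 1 core, 2.58% at least 4, 1.55% TGACGTCA and 0.816% TGATGNAAT. Overlapping matches were each counted. A match describes letters and is not a measured binding site.

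Mcu encodes the pore-forming subunit of the uniporter (ENSMUSG00000009647, chromosome 10 from 59446984 to 59616692 in GRCm38, minus strand). In normoxia its samples stood at 52.4, 60.3 and 55.8 CPM in WT and 80.2, 83.6 and 82.8 CPM in TAZKo. After hypoxia they stood at 55.9, 56.9 and 55.2 CPM in WT and 84.6, 84.3 and 79.7 CPM in TAZKo. No TAZKo library came down to the level of any WT library in either condition. The mean was 1.46-fold higher in TAZKo cells in normoxia (82.2 ± 1.81 against 56.2 ± 3.94 CPM, SD, n = 3), which is 0.55 on the log2 scale (SE 0.0607 by edgeR, adjusted p = 1.43e-05). In hypoxia it was 1.48-fold higher (82.9 ± 2.74 against 56.0 ± 0.849 CPM, SD, n = 3), or 0.57 in log2 units (SE 0.0608 by edgeR, adjusted p = 1.17e-05). In bulk samples, fewer cells of a type and less RNA per cell cannot be told apart. The oxygen conditions were not told apart in Mcu, with log2 changes of -0.00 in WT and 0.01 in TAZKo cells (adjusted p = 0.957 and 0.893 by edgeR). Their 95% intervals ran from -0.137 to 0.127 and from -0.118 to 0.141.

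Neighbours of Mcu on its chromosome moved the same way between the genotypes. Over the 676 tested genes of chromosome 10, the median log2 difference was 0.31 in normoxia and 0.29 in hypoxia, against 0.01 and -0.01 over all genes tested. Of those genes, 55.9% were called higher in TAZKo cells in normoxia and 47.2% in hypoxia. Mcu exceeded its chromosome's median by 0.24 and 0.28, and lay above 79.7% and 83.3% of chromosome 10 genes. It lay above 91.8% and 93.0% of all genes tested. The part of this chromosome-wide shift in the Mcu difference was not tested.

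**Figure D2:**
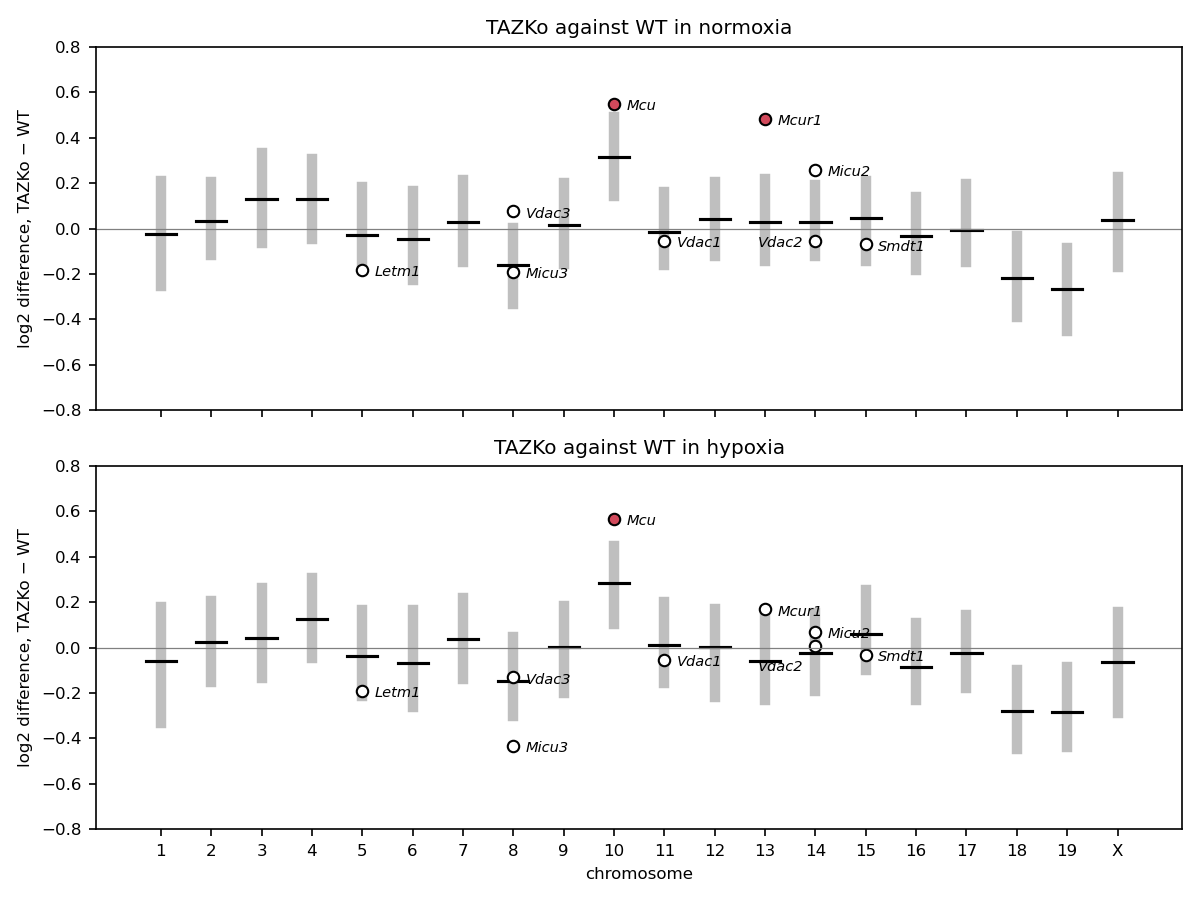
Log2 difference between TAZKo and WT samples (vertical axis) by chromosome (horizontal axis), in normoxia above and hypoxia below. Black lines are chromosome medians, grey bars the middle 50% of tested genes, and points the 9 genes, filled where called by edgeR. The chromosome 10 median is 0.31 in normoxia, and Mcu sits above it at 0.55.

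Smdt1 encodes EMRE, the small subunit that ties the pore to its gate and without which the animal channel does not conduct (ENSMUSG00000022452, chromosome 15 from 82338959 to 82349091, plus strand). Of its exon bases, 245 (16.6%) are shared with Pheta2 on the same strand, so reads there could belong to either gene. WT samples stood at 146, 116 and 109.6 CPM in normoxia and at 106, 97.9 and 90.1 CPM in hypoxia. TAZKo samples stood at 128, 119 and 107.5 CPM in normoxia and at 103, 94.9 and 89.6 CPM in hypoxia. All hypoxia samples of either genotype lay below all normoxia samples of that genotype. In log2 units Smdt1 fell by 0.34 in WT cells (SE 0.104 by edgeR, adjusted p = 0.0145). It fell by 0.30 in TAZKo cells (SE 0.104 by edgeR, adjusted p = 0.0307). The WT change was -0.21 without WT normoxia sample 1 (edgeR adjusted p = 0.0437), whose level was the highest of the 12. In TAZKo cells the call was lost without TAZKo normoxia sample 1 (edgeR adjusted p = 0.0731), TAZKo hypoxia sample 2 (0.0559) or TAZKo hypoxia sample 3 (0.0752). Between genotypes, Smdt1 showed log2 differences of -0.07 in normoxia and -0.03 in hypoxia (adjusted p = 0.663 and 0.850 by edgeR).

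Mcur1, a coiled-coil inner membrane protein described as a scaffold of the uniporter, lies on chromosome 13 from 43538393 to 43560191 (ENSMUSG00000021371, minus strand). Normoxia values were 17.9, 24.6 and 24.9 CPM in WT and 30.1, 32.9 and 31.3 CPM in TAZKo. After hypoxia they were 23.3, 28.0 and 29.8 CPM in WT and 29.3, 31.1 and 30.9 CPM in TAZKo. The genotypes did not overlap in normoxia, with WT sample 1 the lowest, and overlapped in hypoxia. Mcur1 was 1.40-fold higher in TAZKo cells in normoxia, or 0.48 in log2 units (SE 0.116 by edgeR, adjusted p = 0.00634). Without WT normoxia sample 1 that difference was 0.35 (edgeR adjusted p = 0.00675). In hypoxia it was 0.17 (SE 0.115, edgeR adjusted p = 0.295). The rise with hypoxia in WT cells, 0.27, missed the threshold (SE 0.117, edgeR adjusted p = 0.0716). It passed with the replicate number as a block (0.27, edgeR adjusted p = 0.0146) and without WT hypoxia sample 1 (0.31, edgeR adjusted p = 0.0443), and was 0.13 without WT normoxia sample 1 (edgeR adjusted p = 0.229). In TAZKo cells the hypoxia change was -0.05 (edgeR adjusted p = 0.779).

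The gatekeepers sense calcium in the space between the membranes through EF-hand motifs. Micu2, which keeps the channel shut at low calcium, lies on chromosome 14 from 57916261 to 57999262 (ENSMUSG00000021973, minus strand). It stood at 64.3, 83.5 and 86.1 CPM in WT normoxia and 90.2, 96.6 and 93.2 CPM in TAZKo normoxia. After hypoxia the values were 77.8, 80.2 and 77.1 CPM in WT and 84.7, 86.4 and 75.7 CPM in TAZKo. Only in normoxia were the genotypes free of overlap. The normoxia difference of 0.26 just missed the threshold (SE 0.0934, edgeR adjusted p = 0.0504). It passed in 6 of 9 alternatives, among them the replicate number as a block (edgeR adjusted p = 0.0265) and DESeq2 (adjusted p = 0.0382). Without WT normoxia sample 1, the lowest library, it was 0.14 (edgeR adjusted p = 0.0983), and without WT normoxia sample 3 it was 0.30 (edgeR adjusted p = 0.0389). The hypoxia responses of Micu2 were 0.01 in WT cells (edgeR adjusted p = 0.957) and -0.18 in TAZKo cells (SE 0.0932, edgeR adjusted p = 0.131), where the conditions did not overlap. Without WT normoxia sample 1 in the shared fit, the latter had an edgeR adjusted p = 0.0107.

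Micu3, a relative of Micu2 best known from nerve tissue, where it enhances uptake, was the least abundant of the 9 (ENSMUSG00000039478, chromosome 8 from 40307458 to 40386308, plus strand). Its exons share 257 bases (4.18%) with Fgf20 and Mir7666 on the opposite strand, and a kit that does not mark strand cannot tell such reads apart. Its normoxia values were 6.19, 10.3 and 10.0 CPM in WT and 5.55, 8.67 and 8.93 CPM in TAZKo. After hypoxia they were 11.7, 15.5 and 16.4 CPM in WT and 11.3, 9.58 and 11.5 CPM in TAZKo. Sample 1 was the lowest in 3 of the 4 groups. Hypoxia raised Micu3 1.65-fold in WT cells, where the mean went from 8.83 ± 2.29 to 14.5 ± 2.49 CPM (SD, n = 3). On the log2 scale this was 0.72 (SE 0.200 by edgeR, adjusted p = 0.00837). Without WT hypoxia sample 3 the change was 0.57 (edgeR adjusted p = 0.0643), and without WT normoxia sample 1 it was 0.53 (edgeR adjusted p = 0.0173). In TAZKo cells the conditions did not overlap either, with a change of 0.48 that missed the threshold (SE 0.204, edgeR adjusted p = 0.0751). That change passed in 4 of 9 alternatives, among them DESeq2 (adjusted p = 0.0399) and the replicate block (edgeR adjusted p = 0.0127). Micu3 was 0.43 lower on the log2 scale in TAZKo cells in hypoxia, without overlap, and this also missed the threshold (SE 0.196, edgeR adjusted p = 0.109). Without WT normoxia sample 1 in the shared fit, that genotype difference passed (edgeR adjusted p = 0.0281), as did the TAZKo response (edgeR adjusted p = 0.0217). In normoxia the genotype difference was -0.19 (edgeR adjusted p = 0.533), or -0.38 without WT normoxia sample 1 (edgeR adjusted p = 0.115). The 796 tested genes of chromosome 8 were shifted lower in TAZKo cells, with medians of -0.16 in normoxia and -0.15 in hypoxia, and the part of that shift in the Micu3 values was not tested.

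Letm1 encodes an inner membrane protein linked to exchange of potassium or calcium for protons (ENSMUSG00000005299, chromosome 5 from 33739673 to 33782817, minus strand). It stood at 163, 136 and 123 CPM in WT normoxia and 132, 122 and 117 CPM in TAZKo normoxia. After hypoxia it stood at 130.3, 122 and 119 CPM in WT and 107.6, 110.2 and 107.1 CPM in TAZKo. The TAZKo hypoxia samples lay below all others. All 4 simple comparisons gave a log2 difference between -0.18 and -0.19, and none passed the threshold. The edgeR adjusted p was 0.132 for genotype in normoxia and 0.114 for genotype in hypoxia. For hypoxia it was 0.0912 in WT and 0.0892 in TAZKo cells. Blocking on the replicate number, the genotype difference in normoxia (edgeR adjusted p = 0.0493) and the WT hypoxia response (edgeR adjusted p = 0.0325) passed. Letm1 turned on single WT normoxia samples and on the scaling. Without sample 1, its highest, the genotype difference in normoxia was -0.07 (edgeR adjusted p = 0.466) and the WT response -0.07 (edgeR adjusted p = 0.379), while genotype in hypoxia (edgeR adjusted p = 0.0143) and the TAZKo response (edgeR adjusted p = 0.00989) passed. Without WT normoxia sample 3 the normoxia difference was -0.31 and passed (edgeR adjusted p = 0.0123). The WT response passed in 9 of the 12 fits that left out a sample. In 11 of those 12 fits the TMM reference also changed, to WT normoxia sample 1. With that reference and all samples kept, Letm1 passed with hypoxia in WT (-0.24, edgeR adjusted p = 0.0308) and TAZKo cells (-0.22, edgeR adjusted p = 0.0482). The passes in those fits are thus not separate from the change of reference.

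The porins were the most abundant of the set. Vdac1, the principal isoform in most tissues, lies on chromosome 11 from 52360860 to 52389397 (ENSMUSG00000020402, plus strand). It stood at 452, 468 and 472 CPM in WT normoxia and 566, 551 and 543 CPM in WT hypoxia. In TAZKo cells it stood at 436, 457 and 447 CPM in normoxia and 533, 555 and 511 CPM in hypoxia. All 6 hypoxia samples lay above all 6 normoxia samples. The rise was 1.19-fold in WT cells (log2 0.25, SE 0.0508, edgeR adjusted p = 0.000873) and 1.19-fold in TAZKo cells (log2 0.26, SE 0.0508, edgeR adjusted p = 0.00111). With no filter on low counts the WT call was lost (log2 0.18, edgeR adjusted p = 0.0542).

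Vdac2, the isoform known for holding the cell death protein BAK at the outer membrane, lies on chromosome 14 from 21825238 to 21845879 (ENSMUSG00000021771, plus strand). WT samples stood at 204, 218 and 214 CPM in normoxia and 275, 252 and 240.2 CPM in hypoxia. TAZKo samples stood at 213, 203 and 196 CPM in normoxia and 263, 260.5 and 246 CPM in hypoxia. As with Vdac1, the oxygen conditions did not overlap. Vdac2 rose 1.21-fold in WT cells (log2 0.27, SE 0.0616, edgeR adjusted p = 0.00229) and 1.26-fold in TAZKo cells (log2 0.33, SE 0.0615, edgeR adjusted p = 0.000677).

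Vdac3, the least abundant porin (ENSMUSG00000008892, chromosome 8 from 22577075 to 22593813, minus strand), had group means of 42.5 ± 2.94, 44.8 ± 2.04, 46.4 ± 3.78 and 42.3 ± 0.644 CPM (SD, n = 3) in WT normoxia, TAZKo normoxia, WT hypoxia and TAZKo hypoxia. The groups overlapped in all 4 simple comparisons, and none passed (smallest edgeR adjusted p = 0.176, a change of 0.12 with hypoxia in WT cells). The genotype differences of Vdac1, Vdac2 and Vdac3 lay between -0.13 and 0.08 on the log2 scale, and none passed. In Vdac1 their 95% intervals ran from -0.164 to 0.0551 in normoxia and from -0.162 to 0.0562 in hypoxia. Of 50-base words in the longest transcript, 1.88% in Vdac1, 2.41% in Vdac2 and 1.87% in Vdac3 also occur in pseudogene or other transcripts, so a small part of their reads could be split. The other 6 genes shared none.

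Counted over the set, 2 of 9 genes (Mcu and Mcur1, 22.2%) were called between genotypes in normoxia, where 30.4% of all genes tested were called. Only Mcu (11.1%) was called between genotypes in hypoxia, against 32.8% of all genes tested. With hypoxia, 4 of 9 (44.4%) were called in WT cells against 51.0% of all genes, and 3 of 9 (33.3%) in TAZKo cells against 43.8%. Each of these shares lies below the background. With the replicate number as a block, 4 of 9 (44.4%) were called for genotype in normoxia and 6 of 9 (66.7%) for hypoxia in WT cells, above the 36.2% and 55.7% of all genes called in that fit. The block gave 3 of 9 (33.3%) against 38.3% for genotype in hypoxia and 5 of 9 (55.6%) against 48.7% for hypoxia in TAZKo cells. Whether the set was called more or less often than other genes thus depended on the fit. Groups did not overlap for 3, 3, 4 and 6 of the 9 genes in the same order, against 42.8%, 50.0%, 54.6% and 61.1% of all genes tested. The median log2 difference of the 9 genes was -0.05 and -0.03 for genotype in normoxia and hypoxia, and 0.12 and -0.05 for hypoxia in WT and TAZKo cells. Over all genes tested the medians were 0.01, -0.01, 0.01 and -0.01. By DESeq2, 3, 1, 4 and 4 of the 9 were called, against 30.0%, 31.9%, 49.9% and 42.3% of all genes. The genotype comparisons and the hypoxia comparisons share samples, so their values stand side by side and are not independent.

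**Figure D3:**
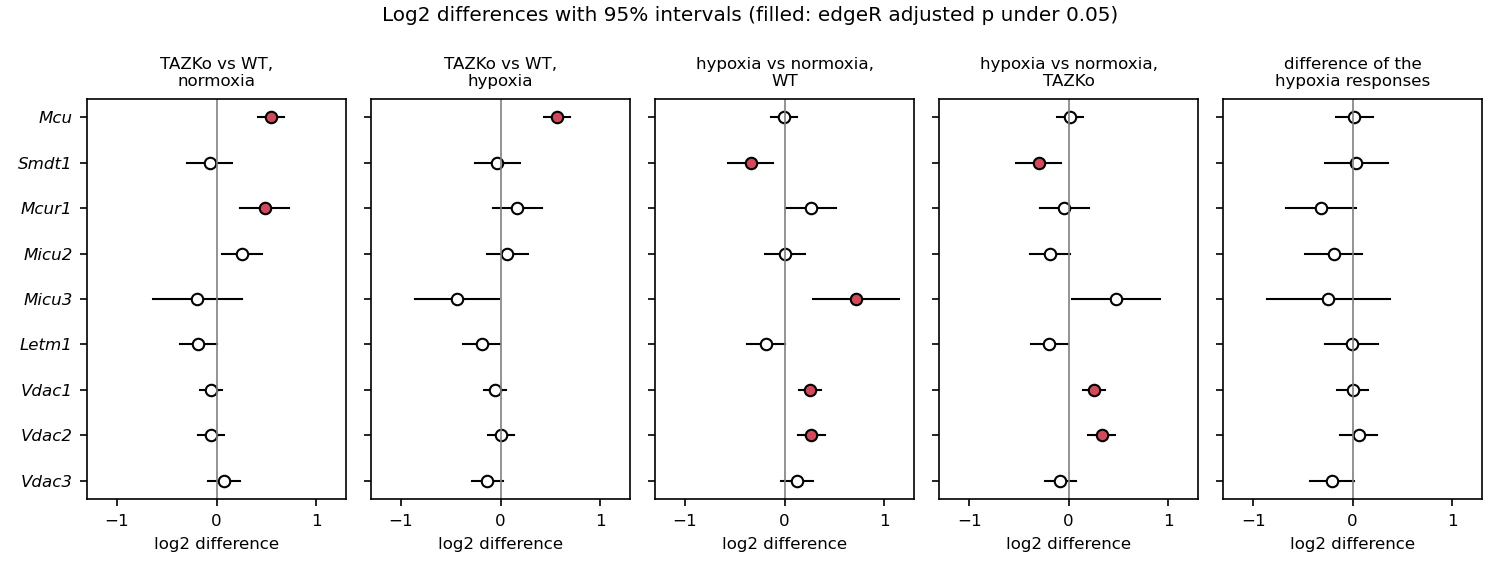
Log2 differences (horizontal axis) of the 9 genes (vertical axis) in each comparison, with 95% intervals. Filled points were called by edgeR at an adjusted p under 0.05. Mcu is called in both genotype panels, Smdt1, Vdac1 and Vdac2 in both hypoxia panels, and none in the last panel.

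The genotypes' hypoxia responses were compared directly, as the response in TAZKo cells minus that in WT cells. None of the 9 genes was called by edgeR in this interaction, against 2.43% of all genes tested. DESeq2 called none of them either, against 4.86% of the 11894 genes to which it gave an adjusted p. None had an unadjusted edgeR p under 0.05. The difference was 0.02 for Mcu (95% interval -0.168 to 0.201) and 0.00 for Vdac1 (-0.153 to 0.156). For Smdt1 it was 0.04 (-0.278 to 0.355) and for Vdac2 0.06 (-0.126 to 0.249). The widest interval was that of Micu3, -0.24 (-0.860 to 0.373), the gene with the fewest reads. Mcur1 (-0.31, -0.667 to 0.0388) and Vdac3 (-0.21, -0.431 to 0.0168) came nearest to a difference, with edgeR adjusted p = 0.386 and 0.363. Without WT normoxia sample 1 the differences of Mcur1 and Micu3 were -0.18 and -0.06. Genes called in a single genotype, such as Micu3, were thus not shown to respond differently between genotypes.

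Levels were compared between genes after division by the length of each gene's exons, as CPM per kilobase (kb). In WT normoxia Vdac1 was highest at 177 ± 4.02 CPM per kb (SD, n = 3), followed by Smdt1 (83.7 ± 12.9), Vdac2 (44.4 ± 1.46), Micu2 (25.3 ± 3.86) and Letm1 (14.6 ± 2.08). Mcu (8.10 ± 0.568) and Vdac3 (7.84 ± 0.542) came next and did not differ beyond their spread, followed by Mcur1 (3.18 ± 0.558) and Micu3 (1.44 ± 0.372). In TAZKo hypoxia Mcu (11.95 ± 0.395 CPM per kb) stood above Letm1 (11.2 ± 0.170) rather than below it. Per kb of the longest coding transcript, Vdac3 moved up to 29.9 ± 2.07 in WT normoxia, close to Micu2 (33.5 ± 5.12) and above Letm1 (26.7 ± 3.81) and Mcu (19.6 ± 1.37), so its place depends on which length is used. The other 8 genes kept their order in that group.

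**Figure D4:**
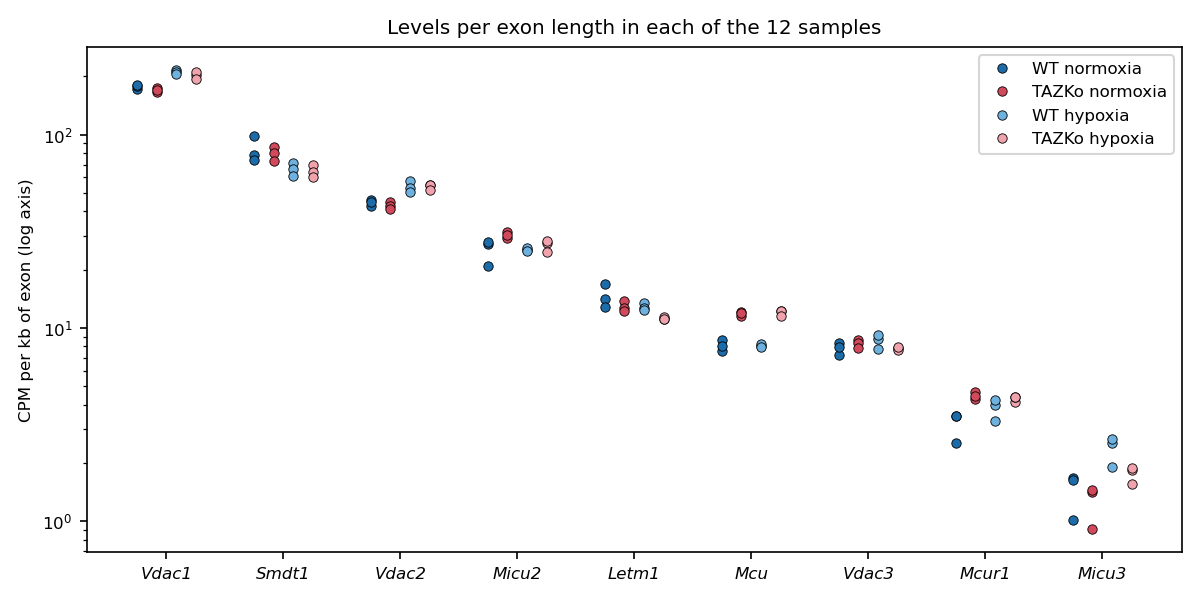
CPM per kb of exon (log axis) of the 9 genes in the 12 samples, coloured by group and ordered by the WT normoxia mean. Vdac1 is highest at 177 and Micu3 lowest at 1.44 in WT normoxia, and the Mcu points split by genotype.

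Ratios within a sample set the subunits against the pore, as a description. Smdt1 stood to Mcu at 10.4 ± 2.25 in WT and 6.74 ± 0.695 in TAZKo normoxia, and at 8.19 ± 0.614 in WT and 5.41 ± 0.244 in TAZKo hypoxia (per exon length, SD, n = 3). Within each condition the TAZKo ratios lay below all WT ratios. Micu2 stood to Mcu at 3.11 ± 0.355, 2.55 ± 0.0385, 3.15 ± 0.0192 and 2.23 ± 0.0869 in WT normoxia, TAZKo normoxia, WT hypoxia and TAZKo hypoxia. Letm1 to Mcu ran in the same order at 1.81 ± 0.361, 1.09 ± 0.0880, 1.59 ± 0.0768 and 0.940 ± 0.0258. There too WT normoxia sample 1 was the highest, at 2.23 against 1.62 and 1.59 in samples 2 and 3. Neither Smdt1 nor Letm1 was called between genotypes on its own. Mcur1 to Mcu stood at 0.391 ± 0.0514 in WT and 0.375 ± 0.00934 in TAZKo normoxia, a difference within the spread. In hypoxia it stood at 0.474 ± 0.0609 in WT and 0.361 ± 0.0203 in TAZKo cells, without overlap. Among the porins, Vdac1 made up 76.8% to 77.3% of the summed signal per exon length in the 4 group means, Vdac2 19.3% to 20.3%, and Vdac3 2.95% to 3.73%. The size of these shares and of the ratios to Mcu depends on the length used. Per kb of the longest coding transcript, the WT normoxia means were 229 (Vdac1), 108 (Vdac2) and 29.9 CPM (Vdac3), closer together than per exon length. Micu2 (33.5) and Mcu (19.6) were closer as well.

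**Figure D5:**
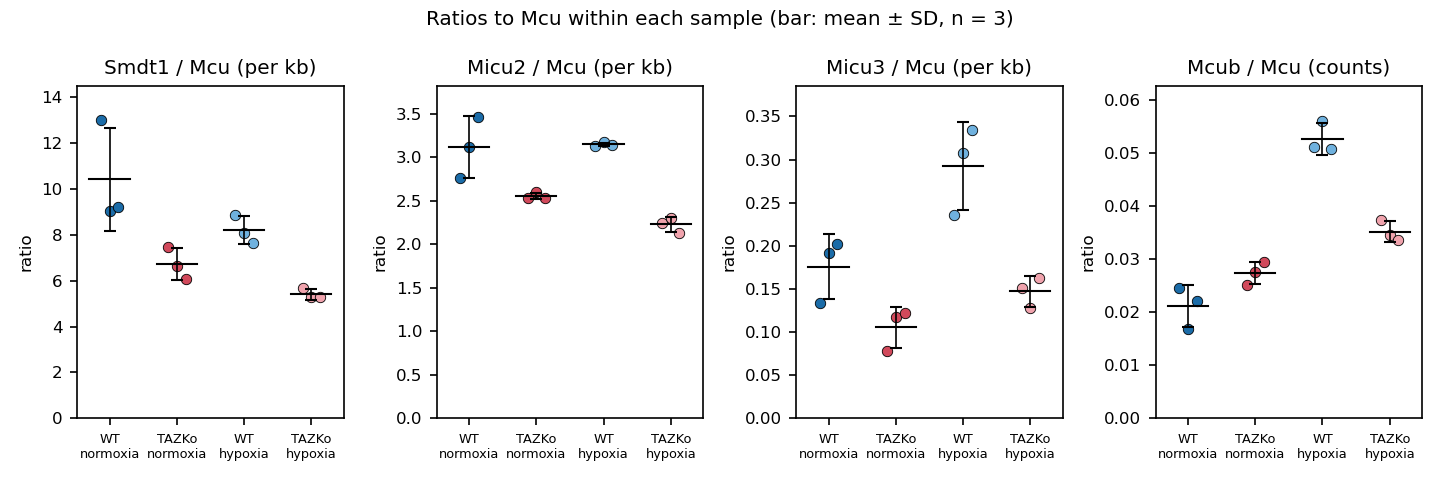
Ratio of Smdt1, Micu2 and Micu3 to Mcu per kb of exon, and of Mcub to Mcu in counts (vertical axes, from 0), in each sample by group. Bars are the mean ± SD of 3 samples. Smdt1 to Mcu falls from 10.4 in WT normoxia to 5.41 in TAZKo hypoxia, and Mcub to Mcu is highest in WT hypoxia at 0.0526.

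The genes whose log2 CPM ran most alike over the 12 samples were named by Pearson's r, as a description over samples that share groups and libraries. For Mcu these were Rxylt1 (r = 0.987), also on chromosome 10, Lrp4 (0.982) and Pde8a (0.981). For Smdt1 they were Nelfe (0.976), Eif3g (0.975) and Acadvl (0.972). For Vdac1 they were Ldlrad3 (0.984), Adcy7 (0.982) and 1700025G04Rik (0.982).

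Other genes of the uniporter and of mitochondrial cation exchange were counted from a list of 6, of which 5 were tested and Efhd1 was too low. Of all genes tested, 15.6% were higher and 14.9% lower in TAZKo cells in normoxia, and 15.8% and 16.9% in hypoxia. With hypoxia 26.0% rose and 25.0% fell in WT cells, and 22.2% and 21.6% in TAZKo cells. The lists below are small, and their counts stand beside these shares. In normoxia 3 of the 5 were higher in TAZKo cells and 0 lower (median 0.56, all genes 0.01), and in hypoxia 1 was higher and 1 lower (median -0.02, all genes -0.01). With hypoxia 4 rose and 1 fell in WT cells (median 0.74), and 3 rose and 1 fell in TAZKo cells (median 0.26). Mcub, the paralogue of Mcu that lowers conductance when built into the pore, had only 23 to 84 counts per library. In normoxia its level was 1.17 ± 0.146 CPM in WT and 2.25 ± 0.215 CPM in TAZKo cells, and in hypoxia 2.95 ± 0.209 and 2.92 ± 0.238 CPM (SD, n = 3). It was higher in TAZKo cells in normoxia (log2 0.94, SE 0.159, edgeR adjusted p = 0.000526) and rose with hypoxia in WT cells (log2 1.32, SE 0.155, edgeR adjusted p = 1.04e-05). Letm2, a relative of Letm1, and Ghitm, an inner membrane protein, were higher in TAZKo cells in normoxia (0.58 and 0.56, edgeR adjusted p = 0.00164 and 0.000127). Letm2 rose by 0.79 with hypoxia in WT cells (edgeR adjusted p = 5.57e-05), and Letmd1 fell by 0.73 in WT and by 0.76 in TAZKo cells (edgeR adjusted p = 1.67e-06 and 1.60e-06). Slc8b1, the sodium-calcium exchanger that lets calcium out of the matrix, rose with hypoxia by 0.74 in WT cells (edgeR adjusted p = 0.000353) and 0.57 in TAZKo cells (edgeR adjusted p = 0.0034). Among 5 genes listed for turnover of uniporter subunits and LETM1, the protease genes Afg3l2 and Spg7 were lower in TAZKo cells and none was higher. Afg3l2 differed by -0.47 in normoxia and -0.31 in hypoxia (edgeR adjusted p = 7.86e-05 and 0.00177), and Spg7 by -0.35 and -0.48 (edgeR adjusted p = 0.0013 and 0.000105). Afg3l2 lies on chromosome 18, whose medians were -0.22 and -0.28, and Spg7 on chromosome 8 (-0.16 and -0.15), so Afg3l2 in hypoxia stood close to its chromosome's median. With hypoxia 2 of the 5 fell in WT cells and 3 in TAZKo cells, led by Oma1 (-0.79 and -0.68, edgeR adjusted p = 1.57e-06 and 7.91e-06).

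Partners of VDAC at the outer membrane and the permeability pore made a list of 11, with 10 tested. With hypoxia 5 rose and 3 fell in WT cells (median 0.20) and 4 rose and 2 fell in TAZKo cells (median 0.20). The hexokinases Hk1 and Hk2, which dock on VDAC1, rose with it: Hk1 by 2.02 in WT and 1.83 in TAZKo cells, and Hk2 by 2.49 and 2.28 (largest edgeR adjusted p = 6.75e-10, Hk1 in TAZKo). Bax, which permeabilises the outer membrane, rose by 0.47 in WT and 0.69 in TAZKo cells (edgeR adjusted p = 0.000647 and 4.24e-05). Bak1, the partner held by VDAC2, fell by 0.37 in WT cells and by 0.25 in TAZKo cells (edgeR adjusted p = 0.000588 and 0.0119). Between genotypes 1 of 10 was higher and 4 lower in normoxia (median -0.14), and 2 were higher and 4 lower in hypoxia (median -0.03). The largest of these was Ckb, a cytosolic creatine kinase, called lower in both conditions (edgeR adjusted p = 1.35e-05 and 1.80e-06) from few reads: 30 to 36 counts per library in WT and 3 to 4 in TAZKo normoxia, and 39 to 77 and 2 to 8 in hypoxia. It rose by 0.69 with hypoxia in WT cells (edgeR adjusted p = 0.0204). Hk1 was the gene higher in normoxia (0.45, edgeR adjusted p = 0.000589) and lies on chromosome 10, whose median was 0.31. In hypoxia Slc25a5 (-0.37, edgeR adjusted p = 0.000928) and Tspo (0.34, edgeR adjusted p = 0.0171) followed Ckb in size. The adenine nucleotide carrier genes Slc25a4 (-0.37 in normoxia, edgeR adjusted p = 0.000153) and Slc25a5 (-0.30, edgeR adjusted p = 0.00436) were among the lower ones in normoxia, and none of the VDAC genes was called between genotypes.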

How the data were processed

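The authors deposited raw counts as whole numbers, 1 table per sample, by Ensembl gene, with no normalization recorded. Libraries were made with a TruSeq v2 kit, per the labels' protocols, and the submitters' processing notes name the build mm10. The aligner, counter and annotation release are not given in the sources used here. Of 48709 IDs, 48349 matched a symbol in GENCODE M21 (GRCm38) and 360 did not. The lane was read from the deposited tables' names.

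Counts were filtered (filterByExpr, 14408 genes left), scaled by TMM and fitted in R 4.3.3 with edgeR 4.0.16 and limma 3.58.1, each group having its own coefficient and all 12 samples sharing the spread. All log2 changes, intervals and adjusted p-values come from its quasi-likelihood test unless DESeq2 (1.42.0) is named. A standard error is the log2 change divided by the square root of F. The fit was tested on simulated data. The 9 genes were named in all comparisons. From 6 lists of related genes, those past the threshold could be named, the 3 largest first, and the 3 genes most like Mcu, Smdt1 and Vdac1 by Pearson's r. Some genes of these lists are not reported here and stay out of their counts. The genes and lists were chosen with earlier results of these data known.

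Alternatives were the DESeq2 test, its size factors, upper quartile scaling, library size alone, no filter, lane as a covariate, the 6 samples compared, each sample left out and the replicate number as a block. A TMM reference of WT normoxia sample 1 was added after seeing the data. No label says what the replicate numbers stand for. In normoxia, samples 1 and 2 of both genotypes ran on lane 4 and sample 3 on lane 5. In hypoxia, sample 1 ran on lane 4 and samples 2 and 3 on lane 5. Same-numbered samples of a condition thus shared a lane, and the part of lane in the correlations below was not tested. Deviations of same-numbered samples from their group means correlated at 0.149 to 0.354 between genotypes in normoxia and 0.152 to 0.368 between oxygen conditions in WT cells, for all 3 pairs of each. There same-numbered samples could be pairs, but the main fit had no block, so its calls and intervals ignore any pairing. Blocked values stand beside the results whose call they changed.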

Additional observations from a re-analysis of the deposited data

Results flagged for a closer look

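In 3 genes of the lists, the hypoxia response differed between the genotypes by the edgeR interaction test. For Mcub, the paralogue of the pore gene, the response in TAZKo cells minus that in WT cells was -0.96 in log2 units (SE 0.209 by edgeR, adjusted p = 0.0288), and the call was lost in 9 of the 12 fits that left out a sample. The separate responses were 1.32 in WT and 0.36 in TAZKo cells, the latter with an edgeR adjusted p = 0.0488 that passed in 0 of 9 alternatives. For Letm2, a relative of Letm1, the difference was -0.74 (SE 0.155, edgeR adjusted p = 0.0244), with group means of 2.81, 4.18, 4.88 and 4.38 CPM in WT normoxia, TAZKo normoxia, WT hypoxia and TAZKo hypoxia. That call was lost in 8 of the 12 fits that left out a sample and with no filter (edgeR adjusted p = 0.0722). For Atp2a3, a calcium pump of the endoplasmic reticulum, the difference was 1.07 (SE 0.238, edgeR adjusted p = 0.032), with 13.96 ± 0.955 CPM in TAZKo hypoxia against 3.54 to 6.10 CPM in the other group means (n = 3). It was lost in 8 of the 12 fits that left out a sample.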

How the results depend on the processing

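The higher Mcu of TAZKo cells kept its call under all 9 alternatives and all 12 fits without a sample, with log2 differences of 0.50 to 0.57 in normoxia and 0.54 to 0.59 in hypoxia. Mcur1 in normoxia, Smdt1 and Micu3 in WT cells, Smdt1 and Vdac1 in TAZKo cells, and Vdac2 in both genotypes also passed under the 9 alternatives. Among the 9 genes, the number called for hypoxia in TAZKo cells was 5 with library size alone, 5 with no filter and 6 with only the samples compared. For genotype in hypoxia it was 2 with no filter and 3 with only the samples compared. With the replicate number as a block it was 4 for genotype in normoxia, 3 for genotype in hypoxia, 6 for hypoxia in WT cells and 5 for hypoxia in TAZKo cells, with Micu3 and Letm1 added in the second and last. For these 2 comparisons same-numbered samples correlated at -0.0237 to 0.121 and -0.0245 to 0.0946, and 3 of 6 samples correlated best with their own number, so the numbers were not taken as pairs there. No other call among the 9 genes changed with the block. Genes called in the interaction numbered 350, 578 by DESeq2, 727 with no filter and 639 with the replicate block. Leaving out a sample gave 174 to 711 interaction genes, and among the 9 genes 2 to 4 calls for genotype in normoxia, 1 to 3 for genotype in hypoxia, 3 to 6 for hypoxia in WT cells and 2 to 6 for hypoxia in TAZKo cells. With library size alone, 38.1% of hypoxia calls in WT cells were higher (51.0% with TMM) and 36.0% in TAZKo cells (50.7% with TMM). The TMM reference sample was another in 11 of the 12 fits without a sample.

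No called change turned sign. Micu2 with hypoxia in WT cells was -0.004243 with DESeq2 size factors, -0.05333 with upper quartile scaling, -0.09798 with library size, -0.004328 by DESeq2, -0.07051 with no filter, -0.006095 with lane, -0.04324 with only the samples compared and -0.04734 with the added TMM reference. Letm1 in the interaction was 0.009773, 0.02968, 0.005826, 0.009769 and 0.04343 under the first 5 of these, and 0.01623 with the added reference. Mcu with hypoxia in TAZKo cells was -0.0144 with upper quartile scaling, -0.08267 with library size, -0.01414 with no filter and -0.01863 with the added reference, which also gave Vdac2 between genotypes in hypoxia -0.003558. Without a sample, Smdt1 between genotypes ran from -0.1858 to 0.06216 in normoxia and -0.0951 to 0.01397 in hypoxia, and Vdac2 in hypoxia from -0.0442 to 0.04805. Micu2 with hypoxia in WT cells ran from -0.1152 to 0.02673 and Mcu in TAZKo cells from -0.04183 to 0.01022. In the interaction the ranges were -0.09391 to 0.1456 (Smdt1), -0.01364 to 0.06871 (Mcu), -0.1248 to 0.1056 (Letm1) and -0.002655 to 0.05542 (Vdac1). The cause was not tested. Of the 9 genes Micu3 had the fewest reads, 132 to 450 counts per library.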

Other observations

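Genes on either side of mitochondrial calcium uptake were counted from lists. Of 16 tested genes of calcium release, store and contact sites of the endoplasmic reticulum, 6 were higher and 1 lower in TAZKo cells in normoxia (median log2 difference 0.12) and 9 higher and 1 lower in hypoxia (median 0.27, all genes -0.01). Among the 6, Rmdn3 and Stim1 lost their calls in 11 and 10 of the 12 fits that left out a sample. They also lost them in 6 and 4 of the 9 other alternatives. Of all genes tested, 15.6% were higher and 14.9% lower in normoxia, and 15.8% and 16.9% in hypoxia. The largest changes in the list were those of Itpr2 (1.20 and 0.84), Atp2a3 (0.79 and 1.86) and Orai2 (0.47 and 0.85), each higher in both conditions (largest edgeR adjusted p = 0.00331, Atp2a3 in normoxia). With hypoxia 5 rose and 5 fell in WT cells, and 7 rose and 2 fell in TAZKo cells. Of all genes tested, 26.0% rose and 25.0% fell in WT cells, and 22.2% and 21.6% in TAZKo cells. The release channel genes parted: Itpr1 fell by 0.87 in WT and by 0.80 in TAZKo cells (edgeR adjusted p = 3.48e-07 and 1.28e-06), while Itpr2 rose by 0.82 and 0.46 (edgeR adjusted p = 6.61e-05 and 0.00251). Orai2, a store-operated calcium channel, fell with hypoxia by 1.05 in WT and by 0.67 in TAZKo cells (edgeR adjusted p = 3.09e-07 and 2.27e-05). In TAZKo cells Atp2a3 rose by 1.20 (edgeR adjusted p = 2.87e-05).

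Of 12 genes listed as calcium-sensitive enzymes and carriers, 1 rose and 6 fell with hypoxia in WT cells (median -0.21). In TAZKo cells 2 rose and 7 fell (median -0.29). The shares of all genes tested that rose and fell were 26.0% and 25.0% in WT and 22.2% and 21.6% in TAZKo cells. Between genotypes, 15.6% were higher and 14.9% lower in normoxia, and 15.8% and 16.9% in hypoxia. The carrier gene Slc25a23 fell by 0.79 in WT and by 0.69 in TAZKo cells (edgeR adjusted p = 0.000116 and 0.000505). The isocitrate dehydrogenase subunits Idh3a (-0.43 in both genotypes) and Idh3b (-0.57 and -0.39) fell, as did Ogdh (-0.64 and -0.55), with a largest edgeR adjusted p of 0.000184 (Idh3b in TAZKo). Pdp2, a pyruvate dehydrogenase phosphatase, rose by 0.84 and 0.50 (edgeR adjusted p = 2.28e-06 and 0.000394). It was the gene of the list that rose in WT cells, and it is not known to be stimulated by calcium itself. Between genotypes 0 were higher and 3 lower in normoxia, and 1 was higher and 3 lower in hypoxia. The lower ones were Slc25a23 (-0.61 and -0.51), Pdp2 (-0.40 and -0.75) and Ogdh (-0.28 and -0.20), and the higher one was Slc25a24 (0.43), with a largest edgeR adjusted p of 0.0337 (Ogdh in hypoxia). Among 10 genes of outer membrane import and mitochondrial reference, 1 rose and 5 fell with hypoxia in WT cells and 1 rose and 3 fell in TAZKo cells. The gene that rose was Tomm20 (0.33 and 0.59, edgeR adjusted p = 0.001 and 1.17e-05), and Hspd1 (-0.55 and -0.44) and Mtx2 (-0.30 and -0.47) fell (largest edgeR adjusted p = 0.00357, Mtx2 in WT). Between genotypes 2 were higher and 1 lower in normoxia, and 4 higher and 1 lower in hypoxia. The largest were Tfam (0.38), Tomm40 (-0.29) and Cs (0.17) in normoxia and Mtx2 (-0.37), Tomm20 (0.27) and Tfam (0.25) in hypoxia, with a largest edgeR adjusted p of 0.0497 (Cs). The Cs call in normoxia was lost in 11 of the 12 fits that left out a sample and in 6 of 9 other alternatives. That of Tfam in hypoxia was lost in 8 of those 12 fits. Tfam and Cs lie on chromosome 10, whose tested genes were shifted higher.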
